A study of Homo sapiens with 27 samples.

Results

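The comparison set 22Rv1 prostate cancer cells treated with 100 nM IPI-9119 against 22Rv1 cells treated with the vehicle DMSO, with 3 libraries in each group and 6 of the 27 RNA sequencing libraries of the series in all. The libraries were chosen by their labels alone, and 13563 of the 20987 genes in the deposited table had a normalised count of 10 or more in at least 3 libraries of the line and were tested. 22Rv1 is a human prostate carcinoma line grown from a xenograft that relapsed after castration of its host, and it is labelled castration resistant. The other libraries came from 22Rv1 cells at 500 nM IPI-9119 and from LNCaP, labelled androgen sensitive, and LNCaP95, labelled castration resistant, each at 100 nM, 500 nM or with DMSO, again with 3 libraries per group. All cells, controls included, were plated, given fresh medium with drug or vehicle while still sparse and left in it for 6 days before the cells were pelleted for RNA. No genetic change was made to the cells, and each line is 1 established culture. Whether the 3 libraries of a group came from separate cultures is not stated in the labels, so the p-values rest on a spread between libraries that may be technical.

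IPI-9119 inhibits fatty acid synthase, the product of FASN, which builds palmitate from acetyl-CoA and malonyl-CoA. Genes of fatty acid and cholesterol synthesis are under the control of the sterol regulatory element-binding proteins, SREBP-1 and SREBP-2, which are held in the endoplasmic reticulum by INSIG proteins when membranes are rich in sterol and are cleaved and moved to the nucleus when lipid runs low. The liver X receptors (LXR) work from the other side, since they bind oxidised sterols and switch on exporters such as ABCA1 and ABCG1, and they also act on the SREBF1 gene. In prostate cancer androgen signalling raises several of the same lipid genes, and fatty acid synthase is often abundant in tumours that no longer depend on androgen.

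Depth and identity of the libraries were checked first. The 9 libraries of the line held 15642743 to 26578881 reads in genes. All 12 luminal prostate markers were tested, among them FOXA1, HOXB13 and KRT8, and their summed normalised count was 63110 to 74000 in 100 nM libraries, against 66720 to 69060 in DMSO libraries. Of the markers of other cells, the basal keratins KRT5 and KRT14 were at 0 to 2.1, the endothelial marker PECAM1 was at 0 in all 9 libraries and PTPRC of leukocytes was at 0 to 9.3 in the 6 libraries compared. The summed endothelial list was 0 to 4.24 in 100 nM and 2.41 to 27.9 in DMSO libraries, the leukocyte list 72.7 to 96.7 and 66.2 to 100.2, the fibroblast and smooth muscle list 596 to 711 and 651 to 729, the basal list 868 to 1639 and 1352 to 1430, and the neuroendocrine list 4908 to 5634 and 5212 to 5793. The basal gene DST, at 823 to 1608 in 100 nM and 1284 to 1390 in DMSO libraries, and the neuroendocrine gene ENO2, at 3184 to 3680 and 3326 to 3712, made up much of the last 2 sums. None of these 5 lists had a called member, but few members were tested, and 6.55% of all genes tested were called. Tested were 0 endothelial, 2 basal, 3 leukocyte, 5 neuroendocrine and 6 fibroblast and smooth muscle genes. Of these 6, 3 had an unadjusted limma p under 0.05. The number of genes above 0 was 18444 in DMSO replicate 3 and 15585 to 15962 elsewhere in the line, and 1528 genes were above 0 in it alone, at a median of 2 reads, of which 0 were among the genes tested. On the second principal component, with 24.9% of the variance, 100 nM replicate 2 (30.3) and DMSO replicate 1 (27.4) lay apart from the other 7 libraries of the line (-22.0 to 4.34), and the ribosomal protein list took 7.95% of reads in 100 nM replicate 2, against 5.75% to 6.61% in the others. In bulk RNA, fewer cells of a kind and less RNA per cell cannot be told apart.

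At 100 nM, 889 genes were called changed by limma at an adjusted p under 0.05 (6.55% of those tested), 433 of them higher and 456 lower, with changes of 2-fold or more in 198. The 3 and 3 libraries did not overlap in 884 of the called genes and in 24.7% of all genes tested. The limma fit took its spread from all libraries of the line, those at the higher dose included. With only the 6 libraries compared in the fit, 356 genes were called. Array weights, which did not converge, gave 307. Genes of fatty acid and cholesterol synthesis rose together, while ALB, which encodes serum albumin, and the immediate early genes FOS and EGR1 fell. The lysosomal glycoprotein GPNMB and the sterol exporter ABCG1 had the largest rises of the genes named by size. That rule took called genes with an approved or earlier symbol, groups that did not overlap and a mean of at least 50 in the higher group. With libraries scaled to the same total, 1060 genes were called, 26.9% of them higher against 48.7% here, and the median of all genes moved from -0.01 to -0.10, so small falls depend on the scaling. The count of called genes was 261 without 100 nM replicate 1, 362 without DMSO replicate 2 and 402 without DMSO replicate 3; it was 1041 without the 2 libraries that lay apart on the second component. In a fit of all 27 libraries of the 3 lines, the calls on INSIG1, ACSL1, FOS, EGR1 and NUSAP1 were lost. So were those on ACLY, ELOVL6, SREBF2, SMPDL3A, FABP3, KLK2, MYC, ORC1, CDK2, SLC2A1, ALDOA, HMOX1 and FTH1, each also lost without at least 1 single library.

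**Figure D1:**
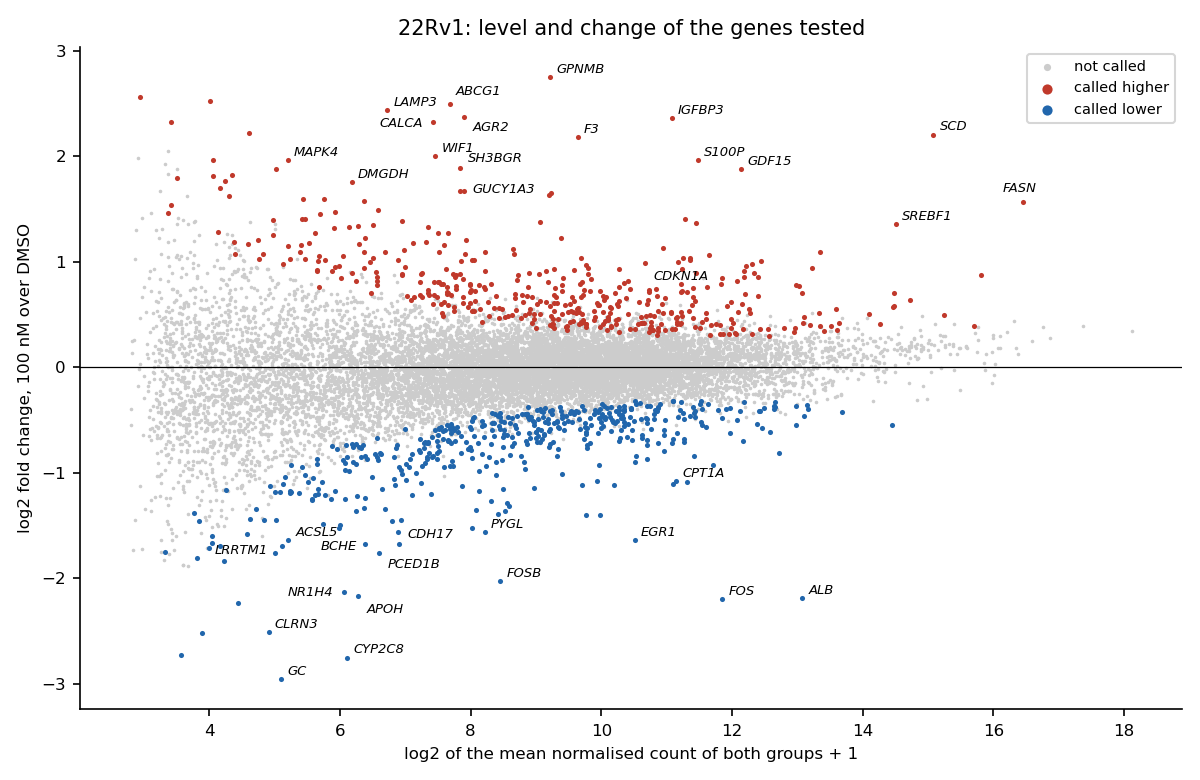
Log2 fold change of 100 nM over DMSO (vertical axis) against the log2 mean normalised count of both groups (horizontal axis) for the 13563 genes tested in 22Rv1. Called genes are coloured, and the labels include the largest rises and falls named by size. FASN (log2 fold change 1.56) and SCD (2.21) are among the most abundant of the risen genes, and ALB (-2.19) is the most abundant of the genes that fell more than 2 units.

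Of the enzymes of fatty acid synthesis and malonyl-CoA supply, 6 of 9 tested rose and 1 fell, with a median log2 fold change of 0.59, against -0.01 over all genes. FASN itself stood at 156950, 122350 and 123770 normalised counts in 100 nM libraries, against 53463, 39826 and 43153 in DMSO libraries. Every treated library was more than 2-fold above every control library, without overlap, and the log2 fold change was 1.56 ± 0.138 (SE, adjusted p = 7.27e-05). ACACA, the carboxylase that makes malonyl-CoA, had 14022, 9530 and 14526 in 100 nM and 5949, 6671 and 6908 in DMSO libraries. Its 100 nM replicate 2 was the lowest of the treated libraries, and the gene rose by 0.94 ± 0.141 (adjusted p = 0.00255). ACSS2, which makes acetyl-CoA from acetate, had 2988, 2704 and 2385 in 100 nM and 1480, 1037 and 1205 in DMSO libraries, without overlap, and rose by 1.13 ± 0.138 (adjusted p = 0.000669). ME1, the cytosolic malic enzyme that yields NADPH, had 416, 408 and 387 in 100 nM and 183, 187 and 198 in DMSO libraries. These were among the tightest groups of the list, and the rise was 1.09 ± 0.108 (adjusted p = 0.000153). ACLY, which makes acetyl-CoA from citrate, rose by 0.50 ± 0.0988 (adjusted p = 0.012; 0.0692 without 100 nM replicate 1 and 0.0605 without DMSO replicate 2).

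The other members of that list were chosen for naming after their values were seen. MID1IP1, a protein that helps acetyl-CoA carboxylase polymerise, rose by 0.59 ± 0.107 (adjusted p = 0.00865; 0.058 without 100 nM replicate 1). ACACB, the carboxylase at the mitochondrial surface whose malonyl-CoA restrains fatty acid oxidation, went the other way. It had 227, 166 and 233 normalised counts in 100 nM and 434, 361 and 315 in DMSO libraries and fell by 0.82 on the log2 scale (SE 0.182, adjusted p = 0.0209). The groups did not overlap, yet the call was lost without DMSO replicate 1 (0.0554), DMSO replicate 2 (0.0691) or 100 nM replicate 1 (0.0597). The citrate carrier SLC25A1 (0.40, adjusted p = 0.117) and malonyl-CoA decarboxylase MLYCD (-0.10, adjusted p = 0.697) were not called. Without single libraries the list had 4 to 7 members higher, fewest without 100 nM replicate 1, and 0 or 1 lower.

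Of the desaturases and elongases, 4 of 15 tested rose and 1 fell (median 0.21). SCD, the desaturase that turns stearate and palmitate into monounsaturated acids, stood at 64189, 44499 and 62573 in 100 nM libraries, against 9875, 13274 and 13882 in DMSO libraries. The lowest treated library was still far above the highest control, and the gene rose 4.61-fold (log2 2.21 ± 0.156, adjusted p = 1.21e-05). FADS2, the first desaturase of polyunsaturated acids, had 3839, 3247 and 3060 in 100 nM and 2349, 1779 and 1925 in DMSO libraries and rose by 0.75 ± 0.129 (adjusted p = 0.00623). Its neighbour in the pathway, FADS1, was at 0.21 ± 0.11 (adjusted p = 0.29) and its groups overlapped. ELOVL5, which extends polyunsaturated acids, rose by 0.60 ± 0.098 (adjusted p = 0.00457), and ELOVL6, which extends palmitate, by 0.66 ± 0.125 (adjusted p = 0.0102; 0.065 without 100 nM replicate 1). The member that fell, named after its values were seen, was ELOVL2, an elongase of very long polyunsaturated acids, at -0.94 ± 0.246 (adjusted p = 0.0433). That call was lost without DMSO replicate 2 (0.123), DMSO replicate 3 (0.146), 100 nM replicate 1 (0.13) or 100 nM replicate 2 (0.0813).

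**Figure D2:**
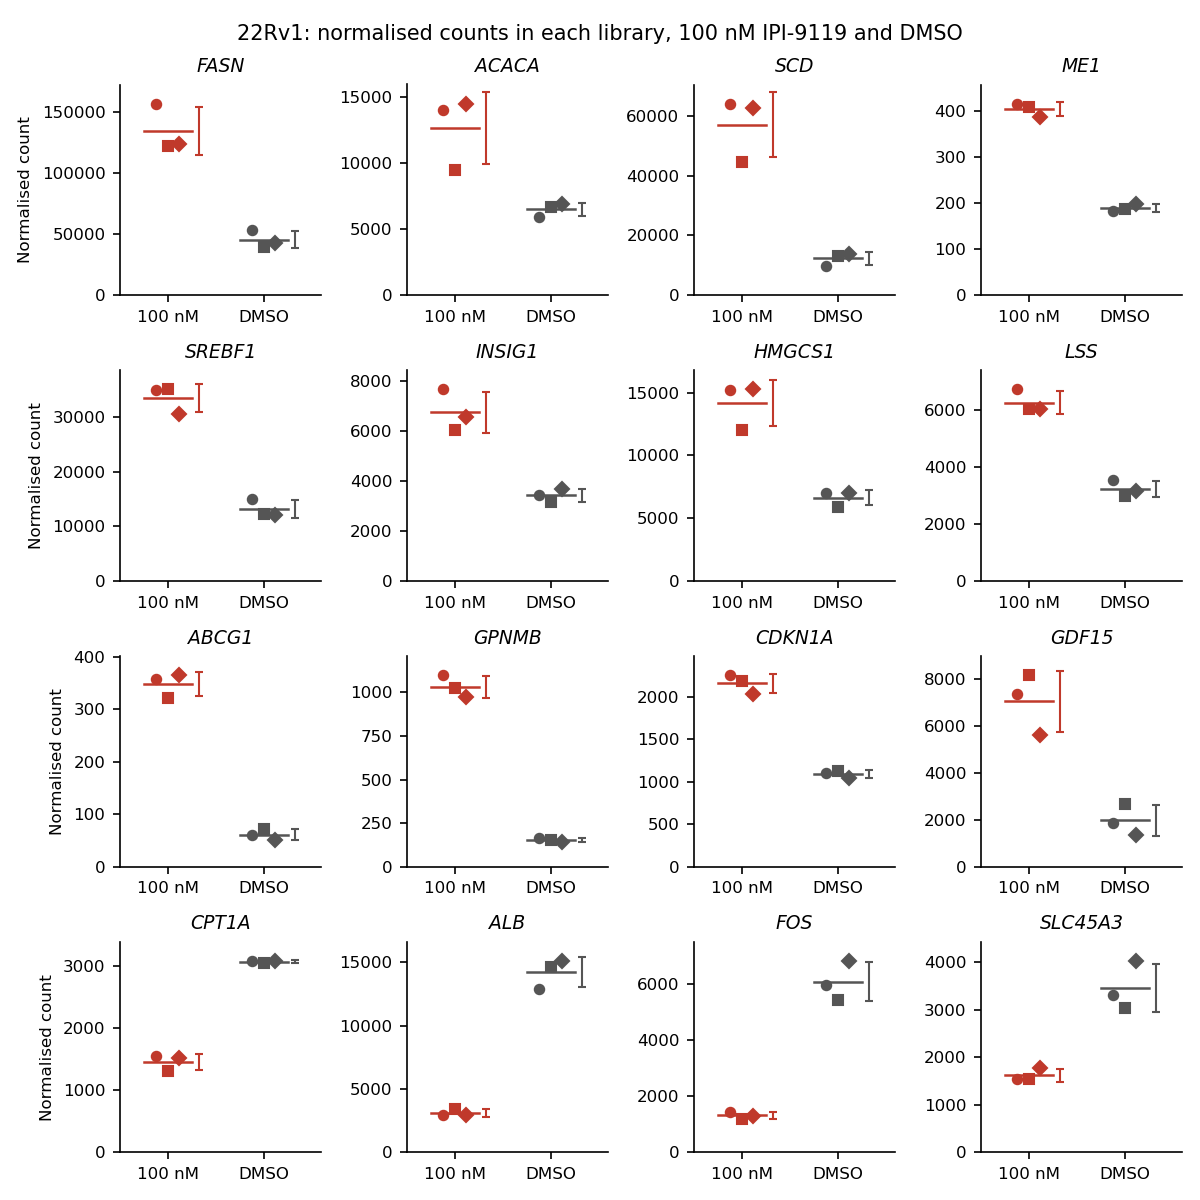
Normalised counts (vertical axes, from 0) of 16 genes in each 22Rv1 library at 100 nM IPI-9119 (red, left) and with DMSO (grey, right); circles, squares and diamonds are replicates 1, 2 and 3, lines are means and bars are ± 1 SD (n = 3). In all 16 genes the 2 groups do not overlap, with 12 higher at 100 nM and CPT1A, ALB, FOS and SLC45A3 lower. All 16 were picked from the 889 called genes, of which 884 do not overlap, against 24.7% of all genes tested.

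Of the SREBP factors, their regulators and the sterol uptake genes, 6 of 15 tested rose and 0 fell (median 0.35). SREBF1, which encodes SREBP-1, had 35023, 35107 and 30609 normalised counts in 100 nM and 15033, 12248 and 12052 in DMSO libraries. All treated libraries were at least 2-fold above all controls, and the rise was 1.36 ± 0.107 (adjusted p = 2.83e-05). SREBF2, which encodes SREBP-2, had 14918, 13227 and 14009 in 100 nM and 11091, 10745 and 11150 in DMSO libraries and rose by 0.35 ± 0.0847 (adjusted p = 0.0309). The groups did not overlap, but the call was lost without DMSO replicate 1 (0.0632), 2 (0.114) or 3 (0.0937) or 100 nM replicate 1 (0.148). INSIG1, a target of the SREBPs that retains them in the endoplasmic reticulum, had 7653, 6033 and 6532 in 100 nM and 3417, 3161 and 3676 in DMSO libraries and rose by 0.97 ± 0.107 (adjusted p = 0.000307; 0.143 in the fit of all 27 libraries). LPIN1, a phosphatidate phosphatase and SREBP target, rose by 0.97 ± 0.161 (adjusted p = 0.00515). Without single libraries the list had 4 to 7 members higher, fewest without DMSO replicate 2 or 100 nM replicate 1, and 0 lower.

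The 4 lists of fatty acid synthesis, desaturation and elongation, SREBP regulation and cholesterol synthesis held 30 called rises, and 25 of these genes had a promoter window in the RefSeq table of GRCh38.p14 (the stretch around the annotated start). The sterol element TCACNCCAC, searched on both strands, was found in 2 of the 25 (8.0%), in 0 of 23 windows of the other tested members, in 1.12% of the 10203 tested genes with a window and in 1.15% of all 27305 windows. The CCAAT box, searched as CCAAT on both strands, was in 18 of the 25 (72.0%), in 11 of the 23 other members (47.8%), in 36.7% of tested genes and in 35.7% of all windows. The 2 motifs share no overlap in the windows shown, and a match describes letters, not binding. The windows with the sterol element were those of SREBF2 (chr22:41832855-41833154, plus strand), where it starts at -133 from the gene's start, and of MID1IP1 (chrX:38801209-38801508, plus strand), where it lies on the opposite strand at -40. MVK, mevalonate kinase (chr12:109573544-109573843, plus strand), is shown beside them because it carries 5 CCAAT boxes. That is the highest number among the 25 windows, shared with NSDHL, so MVK is not typical of them. Capitals mark TCACNCCAC and CCAAT or their reverse complements.
SREBF2: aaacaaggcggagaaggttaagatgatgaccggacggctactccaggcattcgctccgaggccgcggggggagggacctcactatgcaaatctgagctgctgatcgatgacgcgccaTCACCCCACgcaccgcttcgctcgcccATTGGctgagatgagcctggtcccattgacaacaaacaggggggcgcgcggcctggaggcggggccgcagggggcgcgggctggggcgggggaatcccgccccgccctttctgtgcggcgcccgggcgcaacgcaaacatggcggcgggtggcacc
MID1IP1: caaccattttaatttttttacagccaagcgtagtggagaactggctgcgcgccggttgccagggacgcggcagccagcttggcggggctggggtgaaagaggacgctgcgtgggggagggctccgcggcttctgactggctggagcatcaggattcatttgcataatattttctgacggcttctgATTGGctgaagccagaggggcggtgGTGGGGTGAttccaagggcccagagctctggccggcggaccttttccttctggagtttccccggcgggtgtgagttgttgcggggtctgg
MVK: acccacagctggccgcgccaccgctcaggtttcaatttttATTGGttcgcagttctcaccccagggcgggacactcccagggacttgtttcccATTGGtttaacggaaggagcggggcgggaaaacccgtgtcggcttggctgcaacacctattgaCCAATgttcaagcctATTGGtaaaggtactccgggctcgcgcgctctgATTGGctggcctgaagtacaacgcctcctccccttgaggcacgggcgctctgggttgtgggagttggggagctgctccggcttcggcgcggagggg

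Most genes of cholesterol synthesis rose, with 14 of 21 tested higher, 0 lower and a median log2 fold change of 0.68. At its start, HMGCS1, the synthase that makes HMG-CoA, had 15214, 12040 and 15269 normalised counts in 100 nM and 6978, 5919 and 7020 in DMSO libraries. The groups lay apart and the rise was 1.09 ± 0.112 (adjusted p = 0.000195). IDI1, an isomerase of isoprenoid units, rose by 0.81 ± 0.108 (adjusted p = 0.0011). Past squalene, LSS, which closes the sterol rings, had 6720, 6016 and 6041 in 100 nM and 3548, 2971 and 3166 in DMSO libraries and rose by 0.96 ± 0.0939 (adjusted p = 0.000149). SQLE, the epoxidase before LSS, had groups apart, at 3036, 2638 and 2780 in 100 nM against 2260, 1935 and 2328 in DMSO libraries, but was not called (0.38 ± 0.107, adjusted p = 0.0589).

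The other rises of the list, named after their values were seen, ran from 0.55 for FDPS to 1.06 for MVD and included MVK, FDFT1, TM7SF2, MSMO1, NSDHL, SC5D and DHCR7. All 21 members had a log2 fold change above 0, the smallest 0.05 in PMVK. The number called moved with the library left out, to 9 without DMSO replicate 2 or without 100 nM replicate 1 and at most 16 without any other single library; it was 19 without 100 nM replicate 2 and DMSO replicate 1 together, and 13 with libraries scaled to the same total. None was called lower in any of these fits.

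Among LXR and its targets, 3 of 8 tested genes rose and 1 fell (median 0.38). ABCG1, which exports cholesterol to lipoprotein, had 357, 321 and 365 normalised counts in 100 nM and 60.6, 71.0 and 51.6 in DMSO libraries. It rose 5.66-fold (log2 2.50 ± 0.144, adjusted p = 2.56e-06), the smallest p of the comparison after those of GPNMB and ALB, and its groups lay far apart. MYLIP, the ubiquitin ligase that LXR induces, had 367, 280 and 331 in 100 nM and 140, 146 and 178 in DMSO libraries and rose by 1.07 ± 0.144 (adjusted p = 0.0012). LPCAT3, which places polyunsaturated acids in phospholipid, rose by 0.53 ± 0.0851 (adjusted p = 0.0041). SMPDL3A, a phosphodiesterase that LXR raises in macrophages, fell by 0.35 on the log2 scale (SE 0.0912, adjusted p = 0.0413), which rose above 0.05 without DMSO replicate 1 (0.0834), 2 (0.134) or 3 (0.0989) or 100 nM replicate 1 (0.191). ABCA1, the exporter that loads apolipoprotein A-I, stood at 53.6, 28.6 and 48.4 in 100 nM and 9.23, 14.4 and 31.97 in DMSO libraries. Its groups overlapped, since DMSO replicate 3 was above 100 nM replicate 2, and it was not called (1.31 ± 0.387, 95% interval 0.47 to 2.15, adjusted p = 0.0661). The receptor genes NR1H2 (0.23) and NR1H3 (0.11) were not called either (adjusted p = 0.329 and 0.775).

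**Figure D3:**
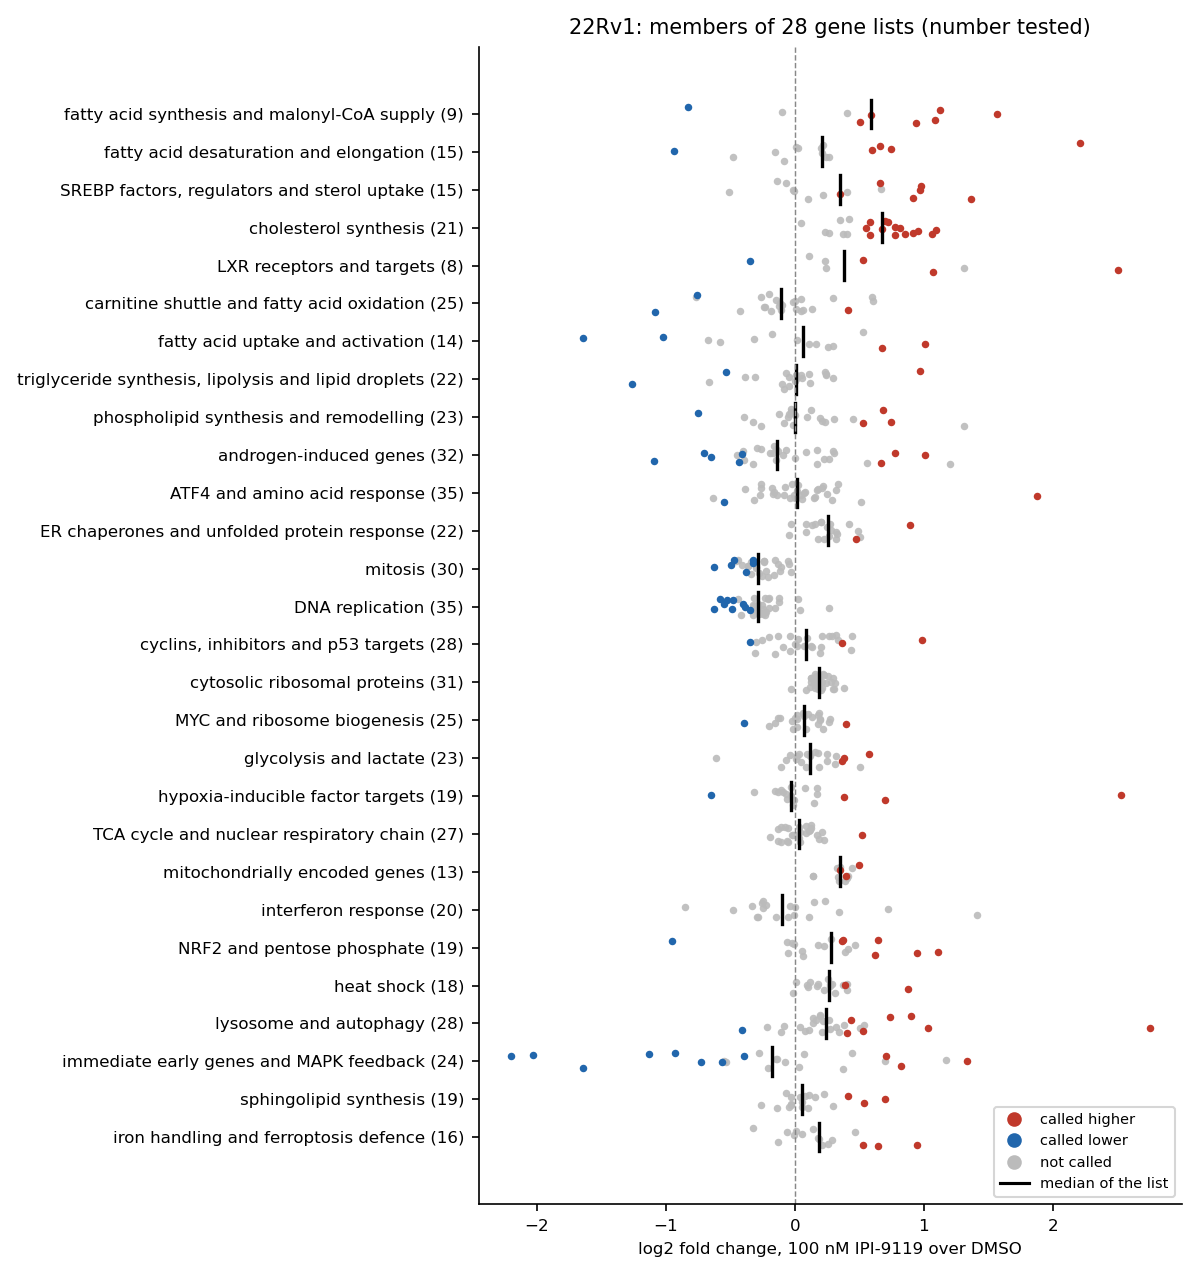
Log2 fold change of 100 nM over DMSO (horizontal axis) for every tested member of 28 gene lists in 22Rv1, one row per list, with called members in red (higher) or blue (lower) and the median of the list as a black bar. The cholesterol synthesis row lies wholly above 0 (median 0.68), while the mitosis (-0.29) and DNA replication (-0.28) rows lie almost wholly below it.

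Carnitine shuttle and fatty acid oxidation genes were mostly not called (median -0.11). Of 25 tested, 1 was higher and 2 lower, beside 6.55% called among all genes. The exception in size was CPT1A, the carnitine transferase that admits fatty acids to mitochondria and that malonyl-CoA inhibits. It had 1544, 1308 and 1512 normalised counts in 100 nM and 3081, 3050 and 3082 in DMSO libraries, so the groups lay far apart and the controls were nearly equal. It fell by 1.08 on the log2 scale (SE 0.108, adjusted p = 0.00017). ACAA2, the mitochondrial thiolase, fell by 0.76 (SE 0.142, adjusted p = 0.00903; 0.0511 without 100 nM replicate 1).

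Fatty acid uptake and activation genes moved both ways, 2 of 14 higher and 2 lower. The acyl-CoA synthetase ACSL3 had 7173, 7119 and 7936 in 100 nM and 3105, 3976 and 4019 in DMSO libraries and rose by 1.01 ± 0.11 (adjusted p = 0.000294). Its relative ACSL1 rose by 0.67 ± 0.107 (adjusted p = 0.00383; 0.0893 in the fit of all 27 libraries). ACSL5, another member of that family, went down, with 11.6, 14.8 and 25.7 in 100 nM and 61.9, 44.5 and 55.7 in DMSO libraries (-1.64 ± 0.304, adjusted p = 0.00899; 0.0918 with array weights). The fatty acid carrier FABP3 fell by 1.02 (SE 0.224, adjusted p = 0.0204), which did not hold without DMSO replicate 2 (0.078), DMSO replicate 3 (0.0886) or 100 nM replicate 1 (0.062).

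Triglyceride and lipid droplet genes had 1 of 22 higher, LPIN1 of the SREBP list, and 2 lower, PLIN4 and DGAT2. PLIN4, a coat protein of lipid droplets, was at -1.26 ± 0.286 (adjusted p = 0.0234) and DGAT2, which makes triglyceride, at -0.53 ± 0.144 (adjusted p = 0.0473). The PLIN4 call was kept only without 100 nM replicate 2 (0.0438) or 3 (0.00532) and was otherwise at 0.0528 to 0.106, and the DGAT2 call only without 100 nM replicate 2 (0.0188), otherwise at 0.0537 to 0.184. PLIN2, a droplet coat protein of many cell types, was not called (0.00 ± 0.128, adjusted p = 0.99, 95% interval -0.27 to 0.28). Of phospholipid genes, 3 of 23 rose and 1 fell. PCYT2 of phosphatidylethanolamine synthesis rose by 0.75 ± 0.125 (adjusted p = 0.00534) and LPCAT1, which makes saturated phosphatidylcholine, by 0.68 ± 0.111 (adjusted p = 0.00417). LPCAT4 fell by 0.75 (SE 0.148, adjusted p = 0.0121; 0.0692 without 100 nM replicate 1). Of sphingolipid genes, 3 of 19 rose and 0 fell, with ASAH1, the acid ceramidase, at 0.53 ± 0.0918 (adjusted p = 0.00623); 1 was left without DMSO replicate 2 or 100 nM replicate 1. The medians of the uptake, triglyceride, phospholipid and sphingolipid lists were 0.06, 0.01, 0.00 and 0.06, and each was below 0 with libraries scaled to the same total.

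Of the androgen-induced genes, 3 of 32 tested were higher, 5 lower and 24 not called, beside 6.55% called among all genes. The median was -0.14. KLK3, which encodes prostate-specific antigen, had 519, 487 and 379 in 100 nM and 625, 568 and 494 in DMSO libraries (-0.29 ± 0.137, adjusted p = 0.241). KLK2, its close relative, fell by 0.44 (SE 0.118, adjusted p = 0.048), and the call was kept only without 100 nM replicate 2 (0.0188), being at 0.0529 to 0.184 without each of the other libraries. SLC45A3, a prostate transporter, had 1545, 1542 and 1769 in 100 nM and 3317, 3036 and 4028 in DMSO libraries and fell by 1.09 (SE 0.136, adjusted p = 0.000721). The members that rose included ACSL3, described above, and the scaffold protein HOMER2 (0.67 ± 0.107, adjusted p = 0.00399). TMPRSS2 (-0.26), FKBP5 (0.17) and KLK4 (0.26) were not called (adjusted p = 0.409, 0.481 and 0.22). Among the 12 luminal markers, 3 fell, KLK2 and SLC45A3 among them, and 0 rose. The androgen list kept 2 falls without DMSO replicate 2 or 3 and had 5 at most without any single library.

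Proliferation genes were lower by small amounts. Of 30 mitosis genes, 6 fell, 0 rose and all 30 estimates were below 0 (median -0.29). Of 35 DNA replication genes, 9 fell and 0 rose (median -0.28). NUSAP1, a spindle protein, had 2371, 2160 and 2452 in 100 nM and 3220, 3280 and 3156 in DMSO libraries, without overlap, and fell by 0.47 (SE 0.0865, adjusted p = 0.00884; 0.337 in the fit of all 27 libraries). ORC1, of the complex that marks replication origins, had 491, 540 and 534 in 100 nM and 836, 709 and 794 in DMSO libraries and fell by 0.58 (SE 0.102, adjusted p = 0.00725; 0.0501 without 100 nM replicate 1). POLD1, the catalytic subunit of polymerase delta, fell by 0.55 (SE 0.108, adjusted p = 0.0117; 0.0591 without 100 nM replicate 1). CDK1 (-0.36 ± 0.103, adjusted p = 0.0569) and MKI67 (-0.34 ± 0.191, adjusted p = 0.342) were not called. These counts depended on the library and the scaling. Without single libraries 1 to 10 mitosis genes were lower, with 1 left when DMSO replicate 1, 2 or 3 or 100 nM replicate 1 was out, and 0 to 11 replication genes, with 0 left when 100 nM replicate 1 was out; with libraries scaled to the same total the counts were 14 and 23.

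Of the cyclins, their inhibitors and p53 targets, 2 of 28 rose and 1 fell. CDKN1A, the inhibitor p21, had 2253, 2188 and 2030 in 100 nM and 1097, 1129 and 1042 in DMSO libraries. The groups were tight and far apart, and the rise was 0.98 ± 0.0904 (adjusted p = 9.05e-05). CDKN1B, the inhibitor p27, rose by 0.37 ± 0.0894 (adjusted p = 0.0329), which did not hold without DMSO replicate 2 (0.0723), DMSO replicate 3 (0.137) or 100 nM replicate 1 (0.148). CDK2, the kinase of S phase, fell by 0.35 (SE 0.0861, adjusted p = 0.0339), kept only without 100 nM replicate 3 (0.0306) and otherwise at 0.0584 to 0.119. CCND1, cyclin D1, was at 0.20 ± 0.115 (adjusted p = 0.36).

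The list of immediate early genes and MAPK feedback genes moved mainly down: 8 of 24 tested fell and 3 rose (median -0.18). Immediate early genes respond within minutes to growth factor signals. FOS had 1439, 1200 and 1305 normalised counts in 100 nM and 5940, 5430 and 6804 in DMSO libraries, a 4.60-fold fall (log2 -2.20 ± 0.19, adjusted p = 6.85e-05; 0.0531 in the fit of all 27 libraries). EGR1 had 701, 562 and 835 in 100 nM and 1980, 1661 and 3019 in DMSO libraries and fell by 1.64 (SE 0.245, adjusted p = 0.00255; 0.191 in that fit and 0.0587 with array weights). For both genes the lowest control was far above the highest treated library. JUN, the partner of FOS, had 2422, 2238 and 2254 in 100 nM and 4505, 4318 and 4317 in DMSO libraries and fell by 0.93 (SE 0.121, adjusted p = 0.000997). FOSB was at -2.03 ± 0.472 (adjusted p = 0.0262), lost without DMSO replicate 1 (0.0619), DMSO replicate 3 (0.0882) or 100 nM replicate 1 (0.0623). ETV5, a transcription factor induced by MAPK signals, rose by contrast, with 221, 201 and 272 in 100 nM and 68.5, 104 and 104 in DMSO libraries (1.33 ± 0.185, adjusted p = 0.00151). The other rises, named after their values were seen, were ETV4 (0.82 ± 0.132, adjusted p = 0.0041) and DUSP4 (0.71 ± 0.163, adjusted p = 0.0247). The DUSP4 call was lost without DMSO replicate 2 (0.0947), DMSO replicate 3 (0.0992), 100 nM replicate 1 (0.116) or 100 nM replicate 2 (0.0538). MYC was at -0.39 ± 0.103 (adjusted p = 0.0439), kept only without 100 nM replicate 2 (0.0122) and otherwise at 0.053 to 0.2. Without single libraries 3 to 7 members of the list were lower, fewest without DMSO replicate 3, and 2 or 3 higher.

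Lysosome and autophagy genes had 7 of 28 higher and 1 lower (median 0.24). GPNMB, a glycoprotein of lysosomes and melanosomes, had 1099, 1023 and 974 in 100 nM and 163, 152 and 142 in DMSO libraries. Its rise was the largest of the genes named by size, with a mean of at least 50 in the higher group. With ALB it had the smallest p of the comparison, at 6.73-fold (log2 2.75 ± 0.121, adjusted p = 1.84e-07). NEU1, the lysosomal sialidase, had 3645, 3765 and 3117 in 100 nM and 1860, 1593 and 1687 in DMSO libraries and rose by 1.03 ± 0.101 (adjusted p = 0.000149). SQSTM1, the cargo receptor p62, had 6952, 7649 and 5654 in 100 nM and 3865, 3550 and 3384 in DMSO libraries and rose by 0.90 ± 0.113 (adjusted p = 0.00078). MAP1LC3B, a coat protein of autophagosomes, rose by 0.53 ± 0.0956 (adjusted p = 0.00781; 0.0503 without 100 nM replicate 1). TFEB, the master regulator of lysosomal genes, was at 0.04 ± 0.142 (adjusted p = 0.908). Without single libraries the list had 3 to 9 members higher, fewest without 100 nM replicate 1.

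NRF2 and pentose phosphate genes had 6 of 19 higher and 1 lower (median 0.28), but 0 were higher without 100 nM replicate 1. HMOX1, haem oxygenase, rose by 0.95 ± 0.175 (adjusted p = 0.00884; 0.0519 without 100 nM replicate 1) and OSGIN1 by 1.11 ± 0.206 (adjusted p = 0.00903; 0.0524 without it). AKR1C1 is so like its paralogs that its value is uncertain (-0.95 ± 0.197, adjusted p = 0.0152, lost without DMSO replicate 2 at 0.0651 or 100 nM replicate 1 at 0.0744). Heat shock genes had 2 of 18 higher and 0 lower (median 0.27). HSPA8, the constitutive cytosolic chaperone, had 74618, 76269 and 70516 in 100 nM and 45880, 30463 and 46626 in DMSO libraries, apart in spite of a low DMSO replicate 2, and rose by 0.87 ± 0.152 (adjusted p = 0.00626). The other heat shock call, HSP90AB1 (0.39, adjusted p = 0.0346), was lost without any DMSO library or 100 nM replicate 1 (0.0619 to 0.144). Endoplasmic reticulum chaperone genes had 2 of 22 higher, and 1 without DMSO replicate 2, DMSO replicate 3 or 100 nM replicate 1, with DNAJB9 at 0.90 ± 0.137 (adjusted p = 0.00289). The iron and ferroptosis list had 3 of 16 higher and 0 lower, namely HMOX1, LPCAT3 and FTH1, and 1 higher without 100 nM replicate 1.

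The amino acid response run by ATF4 was mostly not called, with a median of 0.02. Of 35 genes, 1 was higher and 1 lower, beside 6.55% called among all genes. ATF4 had 12441, 17384 and 13389 in 100 nM and 16134, 15217 and 12370 in DMSO libraries (-0.02, adjusted p = 0.943), and ASNS (0.32, adjusted p = 0.212), DDIT3 (-0.26, adjusted p = 0.462) and TRIB3 (0.18, adjusted p = 0.608) were not called. The 1 riser was GDF15, a secreted stress cytokine that p53 and other factors also raise. It had 7365, 8172 and 5630 in 100 nM and 1882, 2682 and 1353 in DMSO libraries, without overlap, and rose 3.67-fold (log2 1.88 ± 0.206, adjusted p = 0.000307). ATF5, a relative of ATF4, fell by 0.55 (SE 0.11, adjusted p = 0.013; 0.0507 without DMSO replicate 3).

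The central metabolism and translation lists are set beside the 6.55% called among all genes. Glycolysis had 3 of 23 higher, HK1, SLC2A1 and ALDOA, each lost without 4 of the 6 libraries, DMSO replicates 2 and 3 and 100 nM replicate 1 among them (HK1 0.0505 to 0.0832, SLC2A1 0.0654 to 0.146, ALDOA 0.0544 to 0.141). Hypoxia targets had 3 of 19 higher and 1 lower, but 1 and 0 without DMSO replicate 2, with the clock repressor BHLHE40 at 29.1, 23.3 and 25.7 in 100 nM and 2.64, 2.41 and 7.22 in DMSO libraries (2.53 ± 0.373, adjusted p = 0.00237). The TCA and nuclear respiratory chain list had 1 of 27 higher, IDH3A (0.52 ± 0.0942, adjusted p = 0.0082; 0.0504 without 100 nM replicate 1). Mitochondrially encoded genes had 3 of 13 higher, which became 0 with libraries scaled to the same total and 0 without DMSO replicate 2, DMSO replicate 3 or 100 nM replicate 1. Ribosome biogenesis had 1 of 25 higher and 1 lower. Of 31 ribosomal protein genes limma called 0, with 2 at an unadjusted p under 0.05, and edgeR and DESeq2 called 0. Of 20 interferon response genes limma called 0, with 4 at an unadjusted p under 0.05, while edgeR called 0 and DESeq2 1.

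The largest falls were named by their size among called genes with a mean of at least 50 in the higher group and groups that did not overlap. Separation of the libraries was thus a condition of being named here. These falls included ALB and other genes known from liver or gut. ALB, serum albumin, had 2917, 3441 and 2960 normalised counts in 100 nM and 12847, 14612 and 15097 in DMSO libraries, a 4.57-fold fall (log2 -2.19 ± 0.0976, adjusted p = 1.84e-07). GC, the vitamin D binding protein of plasma, had 3.49, 9.53 and 8.32 in 100 nM and 44.8, 56.6 and 77.4 in DMSO libraries (-2.96 ± 0.384, adjusted p = 0.000961). CYP2C8, a drug-metabolising cytochrome, had 12.8, 13.8 and 25.7 in 100 nM and 137, 112 and 106 in DMSO libraries (-2.75 ± 0.348, adjusted p = 0.000796). In each of these genes the treated libraries were several-fold below every control. APOH, a plasma apolipoprotein, fell by 2.17 (SE 0.213, adjusted p = 0.000149). NR1H4, the bile acid receptor, had 25.6, 27.5 and 18.9 in 100 nM and 113, 102 and 106 in DMSO libraries (-2.13 ± 0.256, adjusted p = 0.000604). CDH17, a cadherin of liver and intestine, fell by 1.68 (SE 0.228, adjusted p = 0.00128). PYGL, the liver form of glycogen phosphorylase, had 139, 154 and 155 in 100 nM and 463, 442 and 426 in DMSO libraries (-1.57 ± 0.123, adjusted p = 2.83e-05).

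The list of 9 hepatocyte and gut-type markers summed to 3416 to 3840 in 100 nM libraries and 13670 to 16020 in DMSO libraries. ALB alone, at 2917 to 3441 and 12847 to 15097, made up most of these sums. Only 4 of the 9 were tested, among them ALB, HNF4G and TTR, and 2 of the 4 fell. HNF4G (155 to 316 in 100 nM, 268 to 362 in DMSO libraries) and TTR (11.4 to 27.9 and 15.5 to 19.3) overlapped between groups and were not called. HNF4A was at 2.3 to 3.8 in 100 nM and 3.6 to 12.4 in DMSO libraries, and SERPINA1, APOA1, APOB and FGB stayed at or under 18.6 in every library. BCHE, CLRN3, PCED1B and LRRTM1 complete the largest falls, at -1.68, -2.51, -1.76 and -1.69; only the LRRTM1 call was lost, without DMSO replicate 3 (0.0712) or 100 nM replicate 1 (0.075) or with array weights (0.136).

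The largest rises outside the lipid and lysosome lists were named by the same rule of size, which again required groups that did not overlap. IGFBP3, a carrier of insulin-like growth factors, had 2716, 4269 and 3860 in 100 nM and 552, 780 and 764 in DMSO libraries (2.36 ± 0.201, adjusted p = 6.46e-05). AGR2, a disulphide isomerase of secretory cells, had 417, 469 and 316 in 100 nM and 75.1, 75.8 and 75.3 in DMSO libraries (2.37 ± 0.185, adjusted p = 2.83e-05). F3, tissue factor, which starts coagulation, had 1500, 1162 and 1255 in 100 nM and 315, 284 and 261 in DMSO libraries (2.18 ± 0.129, adjusted p = 2.75e-06). In these genes each treated library was far above each control. WIF1, a secreted inhibitor of WNT proteins, rose by 2.00 ± 0.137 (adjusted p = 1.1e-05), and S100P, a calcium-binding protein, by 1.96 ± 0.174 (adjusted p = 7.27e-05). CALCA, which encodes calcitonin, rose by 2.32 ± 0.244 (adjusted p = 0.000231). LAMP3 (2.44), MAPK4 (1.96), SH3BGR (1.89), DMGDH (1.76) and GUCY1A3 (1.67) complete the largest rises, all kept without any single library.

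The 500 nM cells of the same line were compared with the 100 nM cells directly, since both doses had been set against the same DMSO libraries. limma called 0 of 13563 genes at 500 nM against 100 nM (0% of those tested), with 152 at an unadjusted p under 0.05; edgeR called 0 with 136 and DESeq2 0 with 90. FASN was at 151110, 136200 and 146460 normalised counts in 500 nM and 156950, 122350 and 123770 in 100 nM libraries. The ranges overlapped and the difference was 0.11 on the log2 scale (95% interval -0.19 to 0.41). The difference was 0.12 for SCD (-0.22 to 0.46), -0.00 for SREBF1 (-0.23 to 0.23), 0.09 for ABCG1 (-0.22 to 0.41) and -0.02 for GPNMB (-0.29 to 0.24). For genes that fell it was -0.10 for ALB (-0.31 to 0.11), 0.22 for FOS (-0.20 to 0.63) and 0.17 for CPT1A (-0.06 to 0.41). These intervals leave room for further changes of up to the stated bounds, and an absent call does not show that the doses acted alike. Against DMSO, 946 genes were called at 500 nM, with FASN at 1.68, SCD at 2.33, SREBF1 at 1.36, ABCG1 at 2.59 and ALB at -2.29.

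**Figure D4:**
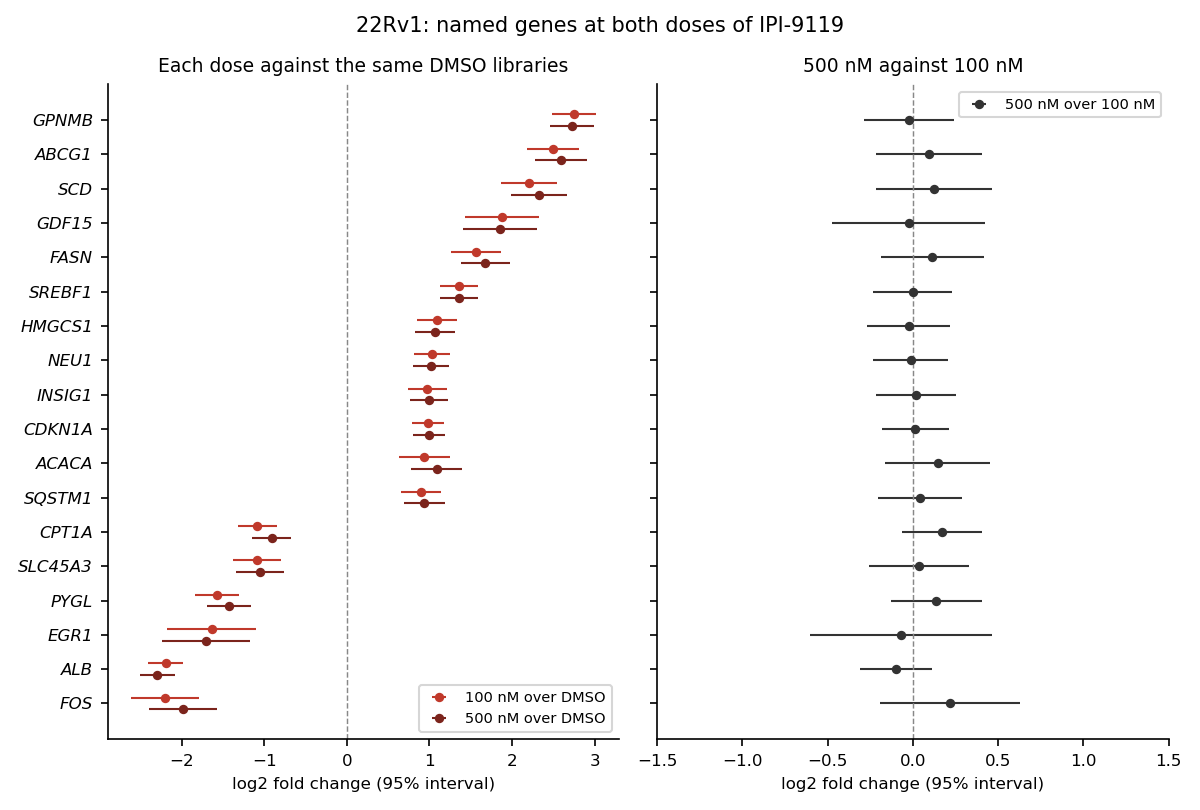
Log2 fold changes with 95% intervals (horizontal axes) of 18 genes in 22Rv1: 100 nM and 500 nM over the same DMSO libraries (left panel) and 500 nM over 100 nM (right panel). On the left the 2 doses lie close together for each gene, and on the right the 18 estimates lie between -0.10 (ALB) and 0.22 (FOS) with intervals that include 0.

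The effect of 100 nM in 22Rv1 was then set against that in the other lines by testing the difference itself, in a fit of all 27 libraries that gives each gene 1 spread over the lines. In LNCaP, the first replicates of both groups stood apart. FASN was at 227520 in 100 nM replicate 1, against 51994 and 45537 in replicates 2 and 3, and CDK1 was at 1992 in DMSO replicate 1, against 960 and 889 in replicates 2 and 3. The difference between 22Rv1 and LNCaP was called for 2265 of 12176 genes (18.6%), 1006 above and 1259 below, and for 2885 without those 2 LNCaP libraries. With libraries scaled to the same total 22.5% of the called differences were above, instead of 44.4%. The difference between 22Rv1 and LNCaP95 was called for 2921 of 12084 genes (24.2%), 1455 above and 1466 below.

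For fatty acid synthesis the difference was called above for 2 and below for 1 of 9 genes against LNCaP. That was 2 to 5 above without single libraries. Without the 2 LNCaP libraries it was 4 above and 2 below, and the median difference was 0.56 instead of 0.38. Against LNCaP95 the counts were 0 and 2. For desaturation and elongation they were 1 and 3 of 14 against LNCaP (2 and 4 without the 2 LNCaP libraries) and 1 and 1 against LNCaP95. The SREBP list had 1 of 14 above and 3 below in both comparisons, beside 18.6% of all genes called in either direction against LNCaP and 24.2% against LNCaP95. For cholesterol synthesis the difference was called above for 1 and below for 1 of 21 genes against LNCaP (4 and 1 without the 2 LNCaP libraries, 1 and 3 without LNCaP DMSO replicate 1 or LNCaP 100 nM replicate 3, and 0 and 1 without LNCaP DMSO replicate 3) and for 2 and 1 against LNCaP95, with median 100 nM effects of 0.68 in 22Rv1, 0.84 in LNCaP and 0.61 in LNCaP95. FASN differed by 0.38 ± 0.52 from LNCaP (adjusted p = 0.671) and by 0.51 ± 0.519 from LNCaP95 (adjusted p = 0.513), and these errors leave sizeable differences possible. The effect on SREBF1 was larger than in LNCaP, at 1.36 in 22Rv1 and 0.51 in LNCaP (difference 0.85 ± 0.219, adjusted p = 0.00795), and so was that on ABCG1, at 2.50 in 22Rv1 and 1.09 in LNCaP (difference 1.41 ± 0.217, adjusted p = 6.55e-05). Against LNCaP95 neither was called (0.09 and -0.23, adjusted p = 0.813 and 0.475). ABCA1 and ELOVL6 were above LNCaP95, by 2.29 ± 0.555 (adjusted p = 0.00417) and 1.35 ± 0.329 (adjusted p = 0.00442).

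In the ATF4 list 22Rv1 lay between the other lines. Its members had a median effect of 0.01 in 22Rv1 and -1.34 in LNCaP, and 31 of 34 were called above LNCaP, the same number without the 2 LNCaP libraries. Against LNCaP95, at a median of 1.21, 29 of 35 were called below. ATF4 itself was at 5959, 6477 and 6635 in LNCaP 100 nM libraries and 17940, 20609 and 19498 in LNCaP DMSO libraries, and at 17238, 15863 and 16137 in LNCaP95 100 nM libraries and 9700, 8479 and 8053 in LNCaP95 DMSO libraries. The effect in 22Rv1 was 1.58 ± 0.182 above that in LNCaP (adjusted p = 1.8e-06) and 0.93 below that in LNCaP95 (log2 difference -0.93 ± 0.182, adjusted p = 0.000708). GDF15 was at 1.88 in 22Rv1 and -1.14 in LNCaP (difference 3.01 ± 0.341, adjusted p = 1.6e-06), while it differed from LNCaP95 by -0.09 ± 0.34 (adjusted p = 0.884).

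Proliferation genes gave the same order with the opposite sign. All 30 mitosis genes and 34 of 35 replication genes were called below LNCaP, whose median effects were 1.38 and 1.07, and 14 and 29 were called above LNCaP95, whose medians were -1.36 and -1.21. Without the 2 LNCaP libraries 30 and 35 were below. CDK1 was at 3051, 5289 and 5819 in LNCaP 100 nM libraries and 1992, 960 and 889 in LNCaP DMSO libraries, and at 2547, 3899 and 3252 in LNCaP95 100 nM libraries and 11917, 14901 and 12434 in LNCaP95 DMSO libraries. In neither line did its groups overlap, and its effect in 22Rv1 differed by -2.29 ± 0.347 from LNCaP (adjusted p = 5.23e-05) and by 1.67 ± 0.347 from LNCaP95 (adjusted p = 0.0013). Without single libraries the mitosis count against LNCaP was 24 to 30. Against LNCaP95 it was 6 without LNCaP95 DMSO replicate 2 or LNCaP95 100 nM replicate 1, 7 without LNCaP95 DMSO replicate 3 or 22Rv1 DMSO replicate 2 and 8 without 22Rv1 100 nM replicate 1, and the replication count was 19 without LNCaP95 100 nM replicate 1.

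**Figure D5:**
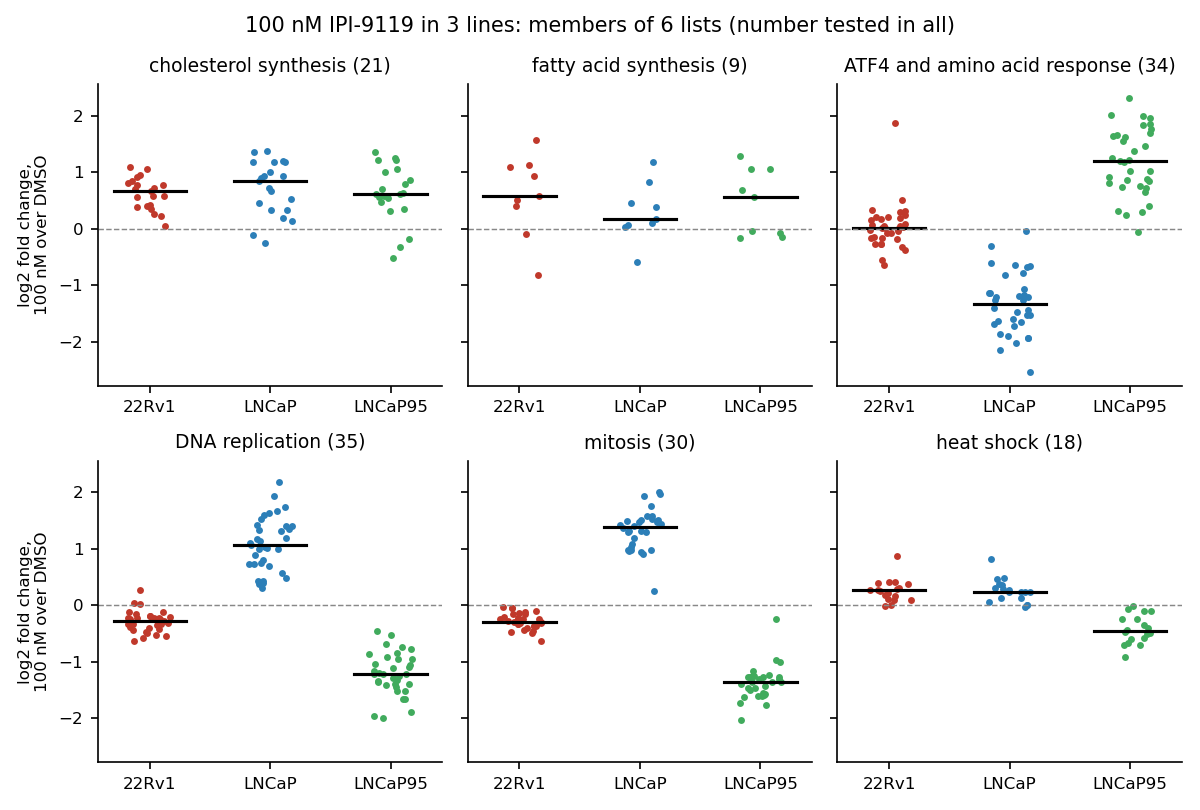
Log2 fold change of 100 nM over DMSO (vertical axes) for the members of 6 gene lists in 22Rv1 (red), LNCaP (blue) and LNCaP95 (green), 1 point per gene tested in all lines, with the median as a black bar. The cholesterol panel shows similar medians (0.68, 0.84 and 0.61), while in the ATF4, DNA replication and mitosis panels 22Rv1 lies near 0 between the other lines.

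Some androgen genes also differed. KLK3 was at -0.29 in 22Rv1 and -1.71 in LNCaP, where it had 2702, 4496 and 4482 in 100 nM and 12816, 12836 and 11703 in DMSO libraries (difference 1.43 ± 0.255, adjusted p = 0.000336). Against LNCaP95, where KLK3 was at 0.58, the difference was -0.87 ± 0.255 (adjusted p = 0.0148; 0.0504 without LNCaP95 100 nM replicate 3). Of the androgen list, 7 of 31 genes were above and 1 below LNCaP, beside 18.6% of all genes called in either direction. Against LNCaP95, 5 of 28 were above and 8 below, beside 24.2% of all genes. The count above LNCaP was 4 without LNCaP DMSO replicate 1, LNCaP 100 nM replicate 2 or 3 or 22Rv1 DMSO replicate 3, and the count below it was 4 without LNCaP DMSO replicate 1. Heat shock genes were above LNCaP95 for 14 of 18, at medians of 0.27 in 22Rv1 and -0.46 in LNCaP95, and the count was 14 without each single library. ALB was at -2.19 in 22Rv1 and 2.81 in LNCaP, where it was at 13.4, 11.1 and 11.7 in 100 nM and 2.31, 0.948 and 0 in DMSO libraries (difference -5.00 ± 0.577, adjusted p = 1.8e-06). The LNCaP levels of ALB were low, and with a pseudocount of 10 the difference was -3.19.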

How the data were processed

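RNA of 27 libraries (3 lines, 9 groups of 3) was enriched for poly(A) and prepared with a directional kit, per the labels' protocols. Reads were aligned with STAR 2.3.1z4 to hg19, counted per gene with featureCounts and normalised with DESeq, per the submitters' processing notes. The deposited values are these normalised counts, a signal per gene already divided by size factors by the authors; at a tolerance of 1e-06, 100% were whole multiples of 1 read per library, so reads were recovered. The test planned for normalised values was kept: limma 3.58.1 in R 4.3.3 with a mean-variance trend on log2(value + 1) over all 9 22Rv1 libraries, for genes with 10 or more in at least 3 of them, two-sided, with Benjamini-Hochberg adjustment over all genes tested and calls at an adjusted p under 0.05. A log2 fold change on this scale understates changes of low genes. edgeR 4.0.16 and DESeq2 1.42.0 on the recovered reads, other scalings, pseudocounts and filters, other sets of libraries and each library left out were alternatives. Differences between lines came from 1 limma fit of all 27 libraries. The procedure was tested on simulated data with known changes.

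The members, the 28 pathway lists and the 7 marker lists were chosen with earlier results of these data known. Genes were named if they were in a panel of 40, among the 15 largest rises or 15 largest falls of called genes with an approved or earlier symbol, groups that did not overlap and a mean of at least 50 in the higher group, among up to 4 called genes of each list, or among the 5 largest differences each way between lines. Alternatives leaving out 2 libraries together were chosen after seeing the data. How the counting treated strand was not stated in the labels or notes, so genes with overlapping or antisense partners, and close paralogs such as AKR1C1, UGT2B, ribosomal protein and mitochondrial genes, are uncertain. Precision is limited by 3 libraries per group. Promoter windows are RefSeq's for GRCh38.p14, used for sequence only; no coordinate of the deposited files was used. Some members of the lists are counted but not reported here by name.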

Additional observations from a re-analysis of the deposited data

Results flagged for a closer look

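The results gathered here are genes whose 100 nM effect differed between 22Rv1 and another line by the test of the difference itself (limma over all 27 libraries, adjusted p under 0.05). Each value is the log2 effect in 22Rv1 minus that in the other line, so a positive value means a more positive effect in 22Rv1.

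Against LNCaP, the lipid regulators SREBF1 (0.85), ABCG1 (1.41) and MYLIP (1.07) differed, as did the androgen-induced KLK2 (0.97), KLK3 (1.43), KLK4 (0.68) and TMPRSS2 (0.77). The amino acid response genes ATF4 (1.58), DDIT3 (1.39), ASNS (2.17) and TRIB3 (2.10) were all above, together with CDKN1A (0.94) and GDF15 (3.01), while MKI67 (-1.77) and CDK1 (-2.29) were below. The largest differences above were those of DMGDH (4.81), S100P (3.16), ARHGAP9 (3.10) and PDE2A (3.09), and the largest below those of ALB (-5.00), NOS3 (-4.51), UGT2B10 (-4.35), COL3A1 (-4.10) and AOX1 (-3.80). UGT2B10 has close paralogs and its value is uncertain. With a pseudocount of 10 the differences of ALB and AOX1 from LNCaP were -3.19 and -2.45. The KLK2, KLK4, TMPRSS2 and MKI67 calls were lost without 5, 9, 8 and 5 of the 12 libraries, with adjusted p up to 0.0797, 0.125, 0.144 and 0.0899; both first LNCaP replicates stood apart, and their part in these results was not tested beyond leaving them out.

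Against LNCaP95, ELOVL6 (1.35), ABCA1 (2.29), MYLIP (0.56), CPT1A (0.87), FKBP5 (1.13), CDK1 (1.67) and CCND1 (1.17) were above. KLK3 (-0.87), SLC45A3 (-0.88), ATF4 (-0.93), DDIT3 (-2.10), ASNS (-0.88) and TRIB3 (-1.48) were below. The largest differences above were those of COL2A1 (3.71), RPRML (3.26), DUSP5 (2.79), GBX2 (2.75) and CORO1A (2.47), and the largest below those of LURAP1L (-4.22), UGT2B4 (-4.19), CUZD1 (-3.85), RIMS2 (-3.53) and KIAA1683 (-3.41). With a pseudocount of 10 the differences of COL2A1, RPRML, GBX2, LURAP1L and RIMS2 from LNCaP95 were 2.153, 1.204, 1.72, -2.54 and -1.241, and COL2A1, RPRML and RIMS2 were at or near 0 in 1 group of LNCaP95. UGT2B4 has close paralogs. The MYLIP call was lost without 7 of the 12 libraries, with an adjusted p of up to 0.096.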

How the results depend on the processing

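The count of genes called at 100 nM, 889, was 356 with only the 6 libraries compared in the fit. With array weights, which did not converge, it was 307. What lowered the count in these fits was not tested. The count ran from 261 to 1183 without single libraries and from 665 to 1277 under the other settings tried (665 without a filter, 896 with edgeR, 1277 with DESeq2). The replicate numbers did not pair the libraries (correlations of deviations -0.04, -0.29 and 0.39 between same-numbered 100 nM and DMSO libraries), and with the replicate block 768 genes were called. Scaling to the same total gave 26.9% higher calls at 100 nM; for the differences from LNCaP and LNCaP95 it gave 22.5% and 40.6% above, against 44.4% and 49.8%. The dose step gave 0 calls in every setting. Differences from LNCaP ranged from 1627 to 2956 without single libraries and were 2838 with the replicate block, and those from LNCaP95 from 2078 to 3132 and 3530.

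Of 154 named effects called, 95 kept call and direction under all alternatives; of the 107 at 100 nM, 63 did so without each single library. Estimates near 0 turned sign: PLIN2 (-0.0886 at equal totals, -0.0592 to 0.0756 without single libraries, -0.0844 without both libraries that lay apart), ATF4 (0.0584 with array weights, -0.1661 to 0.0752 without single libraries), TRIB3 (-0.0307 without DMSO replicate 3) and TMPRSS2 (0.009 without both libraries, -0.421 to -0.0951 without single ones); the cause was not tested. With 3 libraries per group, small changes of low genes were not detectable.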
